A study of Drosophila melanogaster with 2 samples.

Results

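Deep intronic IDR peaks are sites where the tagged CG10654 protein was recovered with DNA. They lie inside genes, outside every exon and far from any transcription start site (TSS). IDR peaks are the shorter of the authors' peak lists, kept by the irreproducible discovery rate, a method that compares peak ranks between replicates. A peak was a member when its summit, the base of highest enrichment, lay within an annotated gene, in no exon of any transcript, and more than 2000 bp from the nearest TSS on either strand. In all, 783 IDR peaks met this rule, or 19.0% of the list, and 3334 did not. The others served for comparison. They were 2164 promoter peaks within 500 bp of a TSS, 571 nearer intronic peaks between 501 and 2000 bp away, 507 intergenic peaks and 92 exonic peaks.

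The peaks came from chromatin immunoprecipitation sequencing with an antibody to green fluorescent protein (GFP). Whole Drosophila melanogaster embryos aged 0 to 24 h, of both sexes, were taken from 1 transgenic line with GFP joined to the C-terminus of CG10654. The study holds 1 group of 2 biological replicates, and the control library was not analysed here, so no condition was compared. Signals from all embryonic tissues and stages are mixed in each value, and read depth is unknown because the files give peaks and not reads.

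In Drosophila, long introns are a common home of enhancers, and the first introns of developmental regulators often hold several that act in different tissues. A peak in chromatin immunoprecipitation marks where the tagged protein was recovered with DNA. It does not show which gene, if any, the site acts on, so each peak is described by its host gene, the gene whose span holds the summit. Bases at a summit can also be bound through a partner protein and not by the tagged protein itself.

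The windows below show the base composition at summits of high signal. They are the summit base and 50 bp on either side for 7 of the members of highest signal, from the Release 6 (dm6) genome, plus strand, 5′ to 3′. Runs of 6 or more A or T are in capitals.
Tlk, chrX:3742166-3742266: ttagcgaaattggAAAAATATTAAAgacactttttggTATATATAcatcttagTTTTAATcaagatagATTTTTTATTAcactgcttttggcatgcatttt
Raf, chrX:2297674-2297774: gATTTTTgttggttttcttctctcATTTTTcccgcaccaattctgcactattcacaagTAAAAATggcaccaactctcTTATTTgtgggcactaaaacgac
CG32486, chr3L:3060752-3060852: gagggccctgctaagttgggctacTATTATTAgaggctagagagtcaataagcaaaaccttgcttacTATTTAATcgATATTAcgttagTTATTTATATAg
Gug, chr3L:8458278-8458378: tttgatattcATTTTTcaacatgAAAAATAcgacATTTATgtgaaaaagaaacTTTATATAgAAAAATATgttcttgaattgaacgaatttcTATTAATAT
trx, chr3R:14283834-14283934: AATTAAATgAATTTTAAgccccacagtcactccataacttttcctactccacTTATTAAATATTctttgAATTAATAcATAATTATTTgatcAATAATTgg
Hr4, chrX:1951878-1951978: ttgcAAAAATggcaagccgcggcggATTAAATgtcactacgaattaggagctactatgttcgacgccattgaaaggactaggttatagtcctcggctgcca
CG33158, chr3L:16480517-16480617: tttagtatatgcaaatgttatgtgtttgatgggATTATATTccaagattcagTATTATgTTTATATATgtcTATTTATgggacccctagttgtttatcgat

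The GC content of these windows ran from 19.8% at Gug to 47.5% at Hr4. In 6 of the 7 the summit window held less GC than the windows of the same width centred 300 bp to either side. At trx, for example, the summit window held 25.7% GC between flanks of 53.5% and 50.5%, and at Gug 19.8% between 49.5% and 48.5%. The Raf window was the exception, with 1 flank of lower GC than the summit. The windows shown leave out some strong members, and among the 20 strongest members the summit window was below both flanks at 15.

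Several of the strongest members lay in genes for chromatin and signalling proteins and for nuclear receptors. The peak values are the authors' signal, an enrichment per peak with no absolute scale, which was used to rank peaks. The member of highest signal lay in intron 2 of Tlk, which encodes the Tousled-like kinase of chromatin assembly, 2319 bp from the nearest TSS. Its signal was 917 in the pooled reads, 599.99 in replicate 1 and 321 in replicate 2. It ranked 47 among all IDR peaks, so the strongest IDR peaks all lay outside the deep intronic set. Intron 1 of Hr3, a nuclear receptor of the ecdysone cascade, held a summit 7899 bp from a TSS with a pooled signal of 888, and 609 and 279 in replicates 1 and 2. Intron 2 of Raf, the kinase of the MAP kinase cascade, held a summit with a pooled signal of 871, and 589 and 286 in the replicates. These 3 sites stood close together in rank, at 47, 52 and 55.

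Then came CG12769 at 788, CG32486 at 778 and Gug, the Atrophin corepressor, at 717. A member in trx, the gene of the histone methyltransferase Trithorax, had a signal of 707. The replicate values at trx were 479 and 234, and those at Gug 455 and 263. Among the other members in the first 20, sbb, which encodes the corepressor Scribbler, held a pair, at 621 and 485. Hr4, another nuclear receptor of the ecdysone cascade, had a signal of 569. The summit at 561 lay within both CG33158 and aos, which encodes the secreted EGF receptor inhibitor Argos, and the nearest TSS was that of aos.

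Other sites of the first 20 lay in simj at 549, tara at 545, CG34417 at 530, fz at 519 and S at 518. The simj gene encodes a NuRD complex subunit, tara a nuclear regulator that interacts genetically with the Polycomb and Trithorax groups, fz the Wnt and planar polarity receptor Frizzled, and S a transmembrane protein needed for EGF receptor ligand traffic. Kdm2, a histone demethylase gene, followed at 505, CHES-1-like, a forkhead factor gene, at 480 and upSET, a chromatin regulator gene, at 472. Introns are numbered throughout in the longest host transcript that has an intron around the summit. Of these 20 members, 10 lay in the first intron so counted and 9 in the second. For 5 of the 20 the host also had an IDR peak at a promoter.

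Most members had a matching summit in both replicates, as did most peaks of the other classes. The IDR list was chosen on these same 2 replicates, so the shares describe a selected list and lie near their ceiling in each class. Summits of 755 of the 783 members, or 96.4% (95% Wilson interval 94.9 to 97.5), lay within 100 bp of a candidate summit in both replicates. Of the rest, 24 were matched in replicate 1 only, 3 in replicate 2 only and 1 in neither. The member matched in neither lay in Eip63E, a cyclin-dependent kinase gene, at a pooled signal of 284. The shares were 95.6% for promoter, 96.7% for nearer intronic and 97.4% for intergenic IDR peaks, with adjusted p-values of 0.420, 0.908 and 0.420 against the members (2-sided Fisher's exact tests, Benjamini-Hochberg over 12 comparisons). The odds ratios of these 3 comparisons lay between 0.710 and 1.24.

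Replicate signals followed each other across members, with a Spearman correlation of 0.731 and a Pearson r of 0.782 on the log2 scale over 755 peaks. These are descriptions, since the peaks come from the same libraries. The 2 summits lay a median of 23 bp apart. Replicate 1 gave the larger signal at 733 members and replicate 2 at 22, and the median ratio of replicate 1 to replicate 2 was 1.84 (quartiles 1.53 and 2.16). The pooled signal was close to the sum of both, with a median ratio of 1.01, so the pooled ranking drew more on replicate 1. Read depth is unknown, and its part in the difference between the replicates was not tested.

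**Figure D1:**
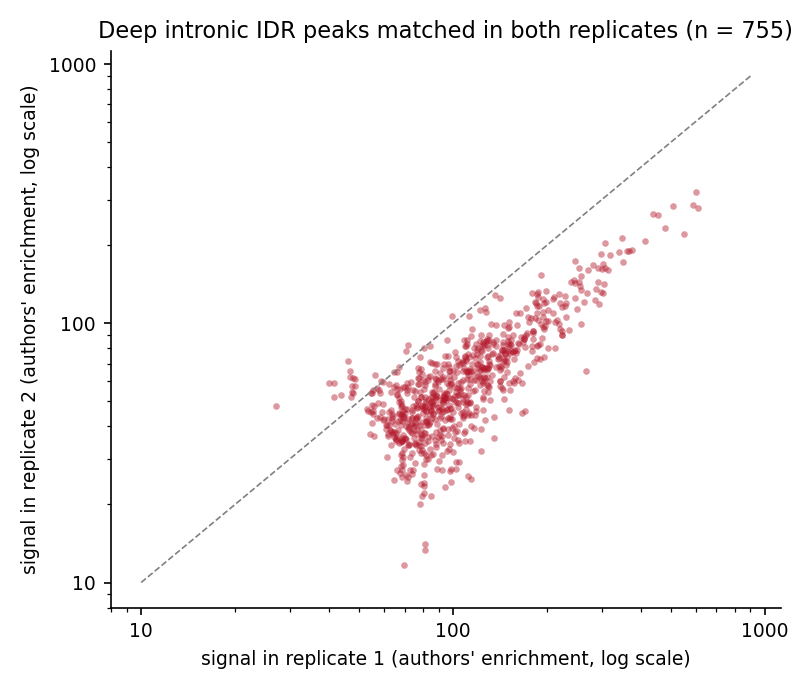
Each point is 1 of the 755 deep intronic IDR peaks matched in both replicates, with the authors' signal in replicate 1 on the horizontal and in replicate 2 on the vertical axis, both log scales. The dashed line marks equal values; 733 points lie below it, and the median ratio of replicate 1 to replicate 2 is 1.84.

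Deep intronic candidates were IDR peaks less often than promoter and nearer intronic candidates were. Of 7357 deep intronic candidates in the pooled reads, 783 were IDR peaks, or 10.6% (95% Wilson interval 9.96 to 11.4), against 15.1% of all 27219 pooled candidates. The share was 26.4% for promoter candidates (odds ratio 0.333, adjusted exact p = 6.68e-142) and 15.4% for nearer intronic candidates (odds ratio 0.655, adjusted exact p = 6.94e-12) by Fisher's exact test. For intergenic candidates it was 9.62%, a difference that did not pass (odds ratio 1.12, adjusted exact p = 0.104). The order deep intronic to intergenic depended on the cut, as the odds ratio was 1.20 with members over 1000 bp from a TSS (adjusted exact p = 0.00305) and 0.999 over 5000 bp. The IDR list was the top of the pooled candidates by signal, so this share and the next are both shares past a signal level.

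Within the deep intronic candidates the share differed with distance, given here without a test. It was 12.2% between 2000 and 4000 bp from a TSS, 11.6% between 4000 and 8000 bp, 8.43% between 8000 and 16000 bp and 8.38% beyond. The median signal of the members in these bins was 158, 145, 141 and 150.

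Members were also weaker within the IDR list. Their pooled signals had a median of 151 with quartiles of 121 and 211, against medians of 173 for promoter, 169 for nearer intronic and 153 for intergenic IDR peaks. Of the members, 42.8% reached the median of all IDR peaks (164), against 54.1% of promoter peaks (odds ratio 0.635, adjusted exact p = 2.12e-07, Fisher's exact test). Against nearer intronic peaks, at 51.8%, the odds ratio was 0.695 (adjusted exact p = 0.00271), but the call was lost in the list of either replicate alone, with adjusted exact p-values of 0.332 without replicate 1 and 0.0604 without replicate 2. For intergenic peaks, at 43.2%, the difference did not pass (odds ratio 0.983, adjusted exact p = 0.908). Only 8 members were among the 100 strongest IDR peaks and 48 among the 500 strongest.

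The members stood relatively higher in replicate 2 than promoter peaks did. Percentile rank within each candidate list was higher in replicate 1 for 179 of 755 members, or 23.7%, against 37.8% of promoter peaks (odds ratio 0.511, adjusted exact p = 6.81e-12, Fisher's exact test). The differences from nearer intronic peaks, at 28.6%, and from intergenic peaks, at 27.5%, did not pass (adjusted exact p = 0.0947 and 0.214). For nearer intronic peaks the adjusted p became 0.0251 when summits had to match within 50 bp and 0.0479 among the IDR peaks above the median signal. The candidate lists differ in length, 23253 and 30000, and the second is so round that the authors may have capped it. Ranked among the matched IDR peaks alone, an alternative added after the data were seen, the odds ratio against promoter peaks was 0.532.

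**Figure D2:**
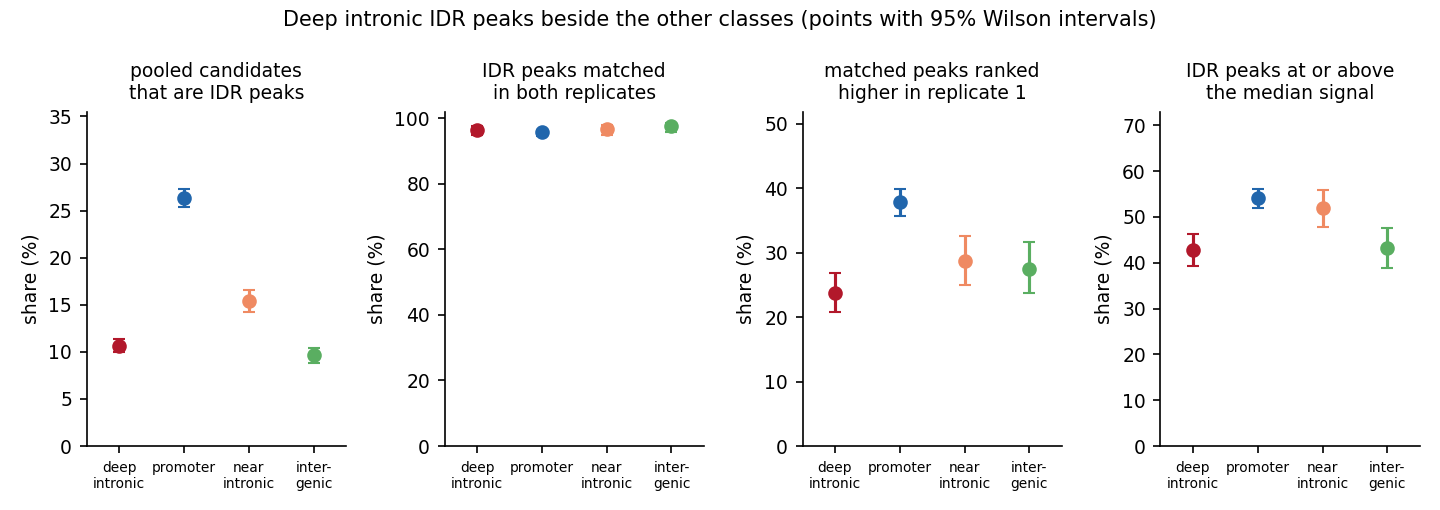
Points give the share of peaks in percent for deep intronic, promoter, nearer intronic and intergenic classes, with 95% Wilson intervals, for 4 measures in separate panels whose axes start at 0. The deep intronic share of candidates that are IDR peaks is 10.6% against 26.4% for promoters, and the share matched in both replicates is 96.4% against 95.6%.

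The members lay a median of 5111 bp from the nearest TSS, with quartiles of 3343 and 8788 bp. The nearest TSS belonged to the host gene for 526 members, or 67.2%. Just inside the limit of the rule lay a summit in msn at 2006 bp, with a pooled signal of 202, and 1 each in CG43658 and NFAT at 2007 bp, with signals of 155 and 183. Just outside it lay summits in Klp98A at 1996 bp, in the noncoding CR44357 at 1997 bp and in CR44320 at 2000 bp, with signals of 99.98, 100.5 and 342. The summit farthest from any TSS lay in hth, which encodes the homeodomain cofactor Homothorax, 49837 bp away, with a signal of 173 in the pooled reads and 97.9 and 65.4 in the replicates.

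In the longest host transcript with an intron around the summit, the first intron held 316 members, or 40.4%, and the second 36.1%. Counting the first intron of any host transcript, it was 467 members, or 59.6%, against 50.8% of deep intronic candidates that were not IDR peaks. The test that follows uses the longest transcript. Among the 6574 deep intronic candidates that were not IDR peaks, 35.5% lay in the first intron (odds ratio 1.23, p = 0.00832, 2-sided Fisher's exact test). With members over 5000 bp from a TSS the odds ratio was 1.17 and no longer passed (exact p = 0.158). Within the intron the members showed no clear preference for an end, with 32.6% in the 5′ part, 36.1% in the middle part and 31.3% in the 3′ part of equal lengths. The introns had a median length of 17.8 kb, and the nearest exon lay a median of 4042 bp away.

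Deep intronic sequence covered 41.4 Mb, or 31.0% of the 6 arms, and held 18.9 members per Mb, against 36.2 IDR peaks per Mb in the rest. By arm, the density was 23.1 per Mb on X, 20.3 on 2L, 19.0 on 3L, 17.9 on 2R and 16.4 on 3R. None of the 80 deep intronic candidates on arm 4 was an IDR peak. A count of 0 there allows a share of up to about 3.75%, a rough bound for counting error and not a Wilson interval. Annotated transposable elements held 2 members, or 0.255%, against 1.08% of the weaker deep intronic candidates.

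Of the members, 36 lay in the spans of several genes and were assigned to the longest gene with an intron there. The members were spread over 442 host genes, 431 of them protein-coding, among 4333 genes with any deep intronic sequence. Most hosts, 264, held a single member, while 178 hosts held several and together 519 members. The 783 members lay in 522 introns, and 160 introns held more than 1. Closeness was moderate, with 98 members, or 12.5%, within 1 kb of another IDR summit.

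The gene with the most members was sbb, with 10 in its second intron alone. Their pooled signals ran from 120 to 621 with a median of 191, over 46.7 kb. The gene also had a promoter IDR peak of 381, which only the strongest pair of its intronic members exceeded. Second was kirre, which encodes an immunoglobulin-domain adhesion protein of myoblast fusion, with 9 members between 99.9 and 460.0 in 2 introns. Its deep intronic sequence was 288 kb long, against 46.8 kb in sbb, and its density was lower, 3.13 members per 100 kb against 21.4.

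Next were rdx, which encodes a Cullin-3 adaptor acting on the Hedgehog effector Ci, and hth, with 7 each. The rdx members ran from 118 to 410 in 1 intron, beside a promoter peak of 412. The hth members ran only from 101.4 to 206 but were spread over 6 introns and 116 kb. Raf and tara had 6 each, all in 1 intron, and no promoter IDR peak. The Raf members other than the strongest had pooled signals of 172, 225, 241, 297 and 309, and the weakest tara member had 191, so each member of these 2 genes lay above the median signal of 151 for all members.

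Another 5 hosts had 6 members: CR44357, shn, msn, Snoo and cv-c. The shn gene encodes a zinc finger cofactor of Dpp signalling, msn a kinase upstream of JNK and Snoo a Ski family corepressor. Of the 11 hosts with 6 or more members, 3 had a promoter IDR peak.

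**Figure D3:**
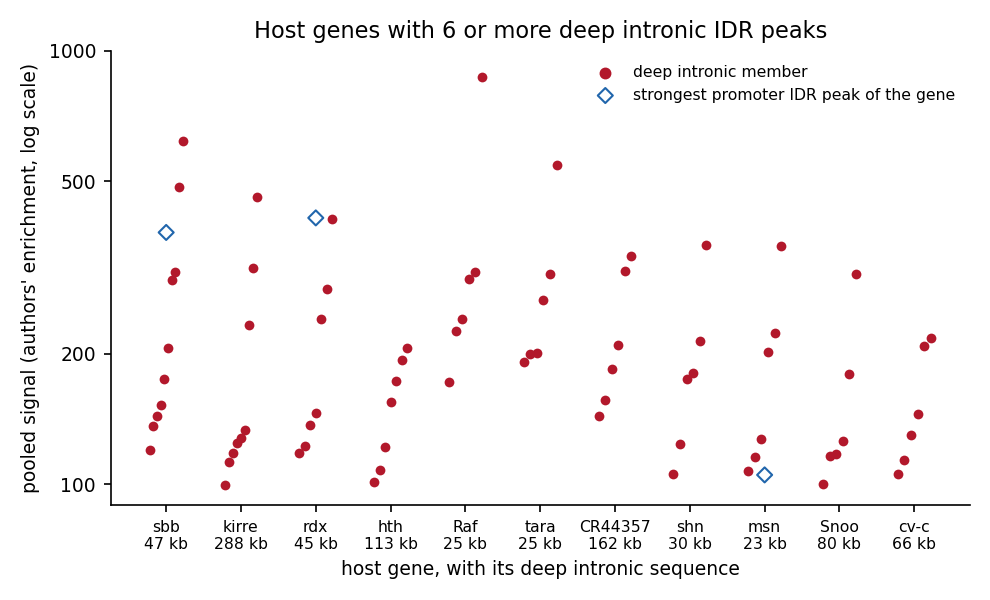
Red points are the pooled signals, on a log scale, of the deep intronic IDR peaks in each of the 11 host genes with 6 or more, and blue diamonds the strongest promoter IDR peak where the gene has one. Kilobases under each name give its deep intronic sequence; sbb leads with 10 members between 120 and 621, and only sbb, rdx and msn have a diamond.

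Across all protein-coding genes with deep intronic sequence, 36.7% of the 431 hosts also had a promoter IDR peak, against 23.9% of the 3785 other genes. Hosts have longer introns, so the shares are best read within a length class. They were 26.2% and 26.5% in genes with under 5 kb of deep intronic sequence, and 39.5% and 19.7% between 5 and 20 kb. In the class of 20 to 50 kb they were 37.8% and 15.2%, and at 50 kb or more 37.5% and 7.22%. These shares are given as a description without a test. Among hosts in the 3 longer classes the promoter share was nearly level, while among the other genes it was lower in each longer class.

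Host genes are described by lists of functions, as members per Mb of the list's own deep intronic sequence, beside 18.0 per Mb over all genes. Also given is the share of a list's deep intronic candidates that were IDR peaks, beside 10.6% over all genes. The lists differed less in this share than in density. Nuclear receptor genes, a family of transcription factor genes, held 17 members in 5 of 15 genes, or 52.6 per Mb. Of their 105 candidates, 16.2% were IDR peaks. In Hr4 the 5 members had pooled signals of 569, 438, 430, 163 and 139. In Eip75B, an early gene of the ecdysone response, they were 241, 239, 237, 200.0 and 195, a much narrower range. In Hr3 they were 888, 211 and 150, of which the last had no match in replicate 2. The ecdysone response list, which shares Hr3, Hr4 and Eip75B with the receptors, held 22 members in 7 of 14 genes, or 46.2 per Mb. Of its 142 candidates, 15.5% were IDR peaks.

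Signalling pathway genes held 41 members in 20 of 50 genes, or 53.3 per Mb, while 12.7% of their 323 candidates were IDR peaks. The strongest lay in fz at 519, in mam, which encodes the Notch coactivator Mastermind, at 416, and in shn at 357. Cell polarity and junction genes held 20 members in 9 of 21 genes, or 36.6 per Mb, and 14.5% of their 138 candidates were IDR peaks. Besides fz, the strongest were in ed, which encodes the adhesion protein Echinoid, at 220 and in cno, the Afadin gene, at 170.

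The lists of highest density rested on few genes. Of the 39 candidates in chromatin regulators 25.6% were IDR peaks, and of the 44 in immune genes 18.2%. Chromatin regulators held 10 members in 4 of 24 genes, or 121 per Mb, and 6 of the 10 lay in tara. The others were in trx at 707 and 184, in the Polycomb group gene Psc at 350 and in ph-p at 114. Immune genes held 8 members in 3 of 12 genes, or 83.0 per Mb, and 5 of these were in ush, which encodes a GATA cofactor of blood cell development, between 175 and 396. The others were in cact, the inhibitor of Dorsal, at 150, and in puc, a JNK phosphatase gene, with a highest value of 107. These genes act in development as well as in immunity.

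The other transcription factor lists, and segmentation and muscle genes, lay closer to the density for all genes. The share of candidates that were IDR peaks was 11.5% for BTB factors and 11.5% for Hox genes. It was 8.62% for neural factors, 6.06% for segmentation genes and 13.8% for muscle genes. BTB factors held 10 members in 8 of 14 genes, or 23.2 per Mb, led by ken at 434, rib at 322 and bab1 at 214. Neural transcription factors held 10 in 3 of 21 genes, or 22.9 per Mb, namely grh at up to 319, Lim1 at up to 218 and hth at up to 206. Hox genes held 6 members in 2 of 8 genes, or 25.2 per Mb, with 5 in Antp between 106 and 225 and 1 in Abd-B at 228. Segmentation genes held only 2, in bowl at 176 and cad at 135, or 19.5 per Mb. Muscle genes held 8 in 6 of 20 genes, or 23.3 per Mb, with how at 199, nau, the MyoD homologue, at 180, and Zasp52 at 177 the strongest.

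Lists with much long-intron sequence had low densities. IDR peaks made up 9.25% of axon guidance and adhesion candidates, 6.36% of RNA-binding regulator candidates and 6.10% of ion channel and receptor candidates. Axon guidance and cell adhesion genes held 42 members in 19 of 73 genes, but over 3.06 Mb, or 13.7 per Mb. After kirre the strongest were in dlp, a glypican gene, at 298 and in Sema1a at 275. RNA-binding regulators held 15 members in 10 of 23 genes, or 10.5 per Mb, led by shep at 335, Rbfox1 at 306 and sm at 211. Ion channel and receptor genes held 5 in 5 of 36 genes, or 5.04 per Mb, the lowest of these lists, with nAChRalpha3 at 192, Ih at 126 and NaCP60E at 108. No cytosolic ribosomal protein gene had deep intronic sequence under the rule.

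**Figure D4:**
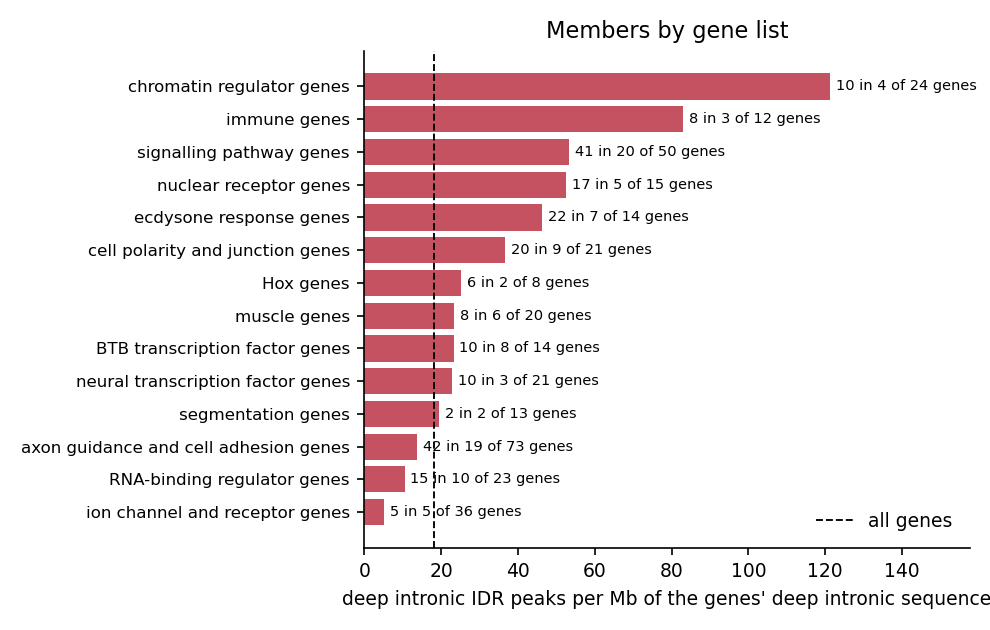
Bars give the deep intronic IDR peaks per Mb of each list's own deep intronic sequence, from 5.04 for ion channel and receptor genes to 121 for chromatin regulators, with the counts of members and genes beside each bar. The dashed line marks 18.0 per Mb over all genes; the 2 longest bars rest on 4 and 3 host genes.

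Base composition was the clearest property that the members shared and the rule did not use. The summit windows held 32.4% ± 7.61 GC (SD, n = 783), against 44.1% ± 6.77 at the flank. The flank value of a peak was the mean of the windows centred 300 bp to its left and right. The summit was lower than its flank at 670 members, or 85.6%, and higher at 109. It was lower than both flanks at 73.8%. In the mean profile GC was lowest at the summit, 31.4%, and highest 225 bp upstream on the plus strand, 45.1%. It settled at 39.8% between 800 and 1000 bp, so the dip was flanked by shoulders richer than the surrounding intron.

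The other classes had a similar dip. Mean GC at summit and flank was 32.0% and 43.3% for nearer intronic peaks, 33.4% and 44.4% for intergenic peaks and 33.9% and 44.2% for promoter peaks. The summit was below the flank at 76.9% of promoter peaks. Deep intronic candidates that were not IDR peaks had a shallower dip, with 38.3% ± 9.22 at the summit and 41.6% ± 6.96 at the flank (SD, n = 6574). Ordered by signal, mean GC at summit and flank was 31.5% and 45.02% in the 200 strongest members, 32.3% and 44.4% in the next 200, 33.1% and 43.0% in the 200 after these and 32.6% and 44.1% in the weakest 183. Among the weaker deep intronic candidates it was 34.7% and 43.4% in the next 1217, 38.1% and 41.7% in the following 2000 and 39.8% and 40.8% in the weakest 3357. The dip was thus shallower in each weaker band of candidates outside the IDR list, but among the members its depth did not fall steadily with signal. Whether fragment recovery or sequencing depth by GC content has a part in this was not tested, as the control library was not analysed here.

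**Figure D5:**
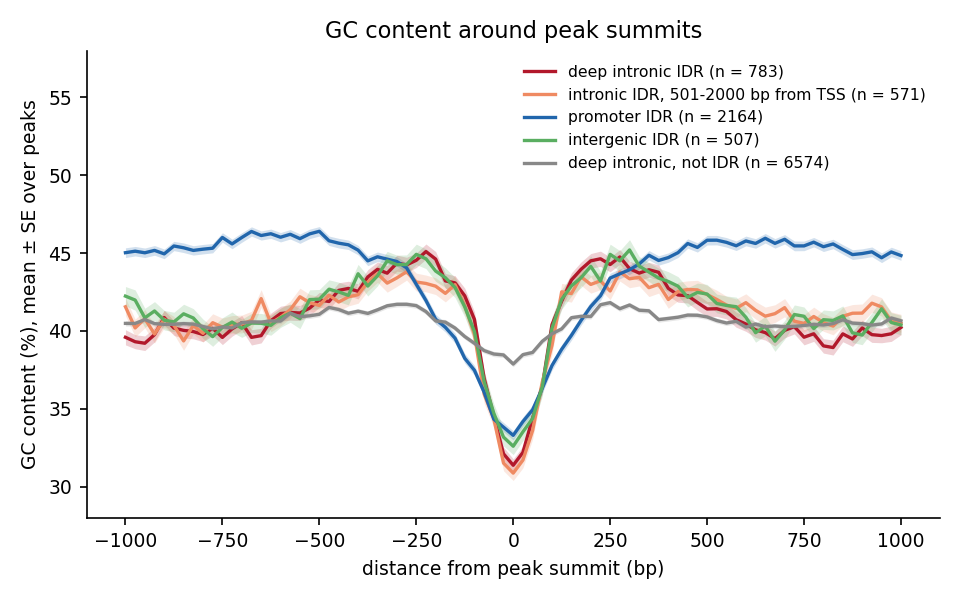
Lines give the mean GC content in percent, with bands of 1 standard error over peaks, by distance from the summit for the 5 peak sets; the vertical axis does not start at 0. The deep intronic IDR line falls from 45.1% at its left shoulder to 31.4% at the summit, while the line for deep intronic candidates outside the IDR list dips much less.

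In the summit windows themselves, short words found more often at summits than at flanks were mostly made of A and T. Here each summit was paired with a single flank window, centred 300 bp to the left and right in turn. Of 3240 words of 8 letters found in at least 10 summit and flank windows combined, 152 were in more summit windows, or 4.69%, and 34 in more flank windows, or 1.05% (exact McNemar tests, adjusted p under 0.05). Among all 3240 words tested, 1039 had 3 or more G or C letters and the rest at most 2. Of the 152, 146 had at most 2 G or C letters. ATATAATA, for example, was in 31 summit and 2 flank windows (adjusted exact p = 0.000106). Of the 34 flank words, 33 had 3 or more G or C letters. CAACAACA was in 48 flank and 6 summit windows (adjusted exact p = 1.06e-05) and GCAGCAGC in 21 and 1.

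The word calls depended on where the flank lay. Against flanks centred 600 bp away, where mean GC was 41.1% on the left and 40.4% on the right, none of 3405 words passed, and 364 had an unadjusted p below 0.05 by the same exact test. The calls thus hold against the flanks at 300 bp only, and the part of base composition in them was not tested.

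Only 6 of the 152 summit words had 3 or more G or C letters, against 1039 of all 3240 words tested. These 6 were ACACTGAG, CACAGAGA, GGTAAACA, AACAAGTG, ATGCACTG and CACTGAAA. ACACTGAG was in 15 summit windows and no flank window (adjusted exact p = 0.00482, exact McNemar test). It was in 14 of 507 intergenic summit windows, in 8 of 2164 promoter ones and in 63 of the 6574 weaker deep intronic ones. With flanks at 600 bp its adjusted p was 0.228. With windows reaching 100 bp to either side, the adjusted exact p-values were 2.51e-05 for ACACTGAG, 1.55e-06 for ATGCACTG and 1.52e-05 for CACTGAAA, 3 words that share the letters CACTG. GGTAAACA, which holds the core letters of forkhead factor sites, was in 16 summit and 2 flank windows (adjusted exact p = 0.0176). Without replicate 1 its adjusted p was 0.819, and without replicate 2 the calls of CACTGAAA (0.108) and AACAAGTG (1.00) were lost.

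The members of highest signal with ACACTGAG are shown because this word was in none of the flank windows tested. The windows have the same width, on dm6, plus strand, with the word or its reverse complement in capitals.
mew, chrX:13234199-13234299: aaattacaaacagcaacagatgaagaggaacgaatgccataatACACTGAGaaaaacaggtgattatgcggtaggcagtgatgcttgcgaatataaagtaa
Spn, chr3L:2531565-2531665: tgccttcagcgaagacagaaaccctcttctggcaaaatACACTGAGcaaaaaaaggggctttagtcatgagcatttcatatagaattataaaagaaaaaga
cpo, chr3R:17941229-17941329: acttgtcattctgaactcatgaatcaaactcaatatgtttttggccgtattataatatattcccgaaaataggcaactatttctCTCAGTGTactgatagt

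These 3 sites had pooled signals of 228, 216 and 187. The mew gene encodes an integrin alpha subunit, Spn the protein phosphatase partner Spinophilin and cpo an RNA-binding protein of the nervous system. The capitals lie near the centre at mew, left of it at Spn and near the right end at cpo.

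The letters CACTG, shared by several of these words, lay mainly beside the summit and not under it. This pattern was looked for after the words had been seen, so it is given as a description without a test. CACTG on either strand was in 20.1% of the members' summit windows, in 35.0% of windows centred 100 bp to the left and in 37.2% of those 100 bp to the right. In windows centred 300 to 1000 bp away the share had a median of 15.0%. Between 40 and 140 bp from the summit, on either side, CACTG was found at 443 members, or 56.6%, and on both sides at 17.2%. Between 340 and 440 bp the shares were 27.7% and 2.04%.

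The placement is shown at 2 of the strongest members that have CACTG on both sides of the summit. The windows reach 140 bp to either side, on dm6, plus strand, with CACTG or its reverse complement CAGTG in capitals.
Gug, chr3L:8458188-8458468: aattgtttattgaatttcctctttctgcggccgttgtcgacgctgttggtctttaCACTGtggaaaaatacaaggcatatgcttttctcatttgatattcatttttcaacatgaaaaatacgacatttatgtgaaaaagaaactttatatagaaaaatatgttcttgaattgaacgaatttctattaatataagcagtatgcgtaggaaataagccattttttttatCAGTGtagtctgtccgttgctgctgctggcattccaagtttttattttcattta
CG33158, chr3L:16480427-16480707: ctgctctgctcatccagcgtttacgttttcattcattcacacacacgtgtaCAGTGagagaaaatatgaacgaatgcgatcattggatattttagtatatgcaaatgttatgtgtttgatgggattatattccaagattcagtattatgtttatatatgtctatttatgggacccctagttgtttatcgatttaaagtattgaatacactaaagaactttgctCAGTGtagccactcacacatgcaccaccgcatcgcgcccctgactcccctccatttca

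These sites had pooled signals of 717 at Gug and 561 at CG33158. The capitals stand apart from a centre rich in A and T at both. At Gug 1 copy lies on each strand, and at CG33158 both copies are read on the minus strand.

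The same placement was seen with the replicates' own summits. Within 40 to 140 bp CACTG was at 56.0% of the 779 members matched in replicate 1 and at 56.2% of the 758 matched in replicate 2. The share was 69.5% in the 200 strongest members, 55% and 51.5% in the next bands of 200 and 49.7% in the weakest 183. It was 34.8% at the deep intronic candidates outside the IDR list, against 26.4% at 340 to 440 bp from their summits. CACTG also lay beside the summits of the other classes. The share at 40 to 140 bp was 55.0% for nearer intronic, 57.8% for intergenic and 43.4% for promoter IDR peaks, and at 340 to 440 bp 23.5%, 29.8% and 34.8%.

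A pair of longer words with this core lay in opposite orientations to the summit. Each word was found both to the left and to the right of it. CACTGAGA was between 40 and 140 bp from the summit at 66 members, or 8.43%, and between 340 and 440 bp at none. Of its 77 copies within 140 bp, 75 had the summit 3′ of the word, and the median over all 77 was 77 bp to that side. CACTGTGC was at 50 members, or 6.39%, against 5 between 340 and 440 bp. Of its 68 copies, 53 had the summit 5′ of the word, and the median over all 68 was 68.5 bp to that side. Each word thus had a preferred orientation toward the summit, and the orientations were opposite. The other classes showed the same orientations. Between 40 and 140 bp, CACTGAGA was at 8.88% of intergenic, 5.08% of nearer intronic and 1.89% of promoter IDR peaks. For CACTGTGC these shares were 3.75%, 6.30% and 3.74%. Soft-masked letters, which mark repeats in the genome sequence, held 51 of the 77 copies of CACTGAGA and none of the 68 of CACTGTGC. The part of repeats in the placement of CACTGAGA was not tested.

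Consensus sequences of known factors were searched on both strands of the same windows, 30 in all. Of these, 2 were in more summit than flank windows, or 6.67%, and 5 in more flank windows, or 16.7% (exact McNemar tests, adjusted over the 30). GATA sites, an A or T followed by GATA and an A or G, were in 25.3% of summit windows and 16.1% of flank windows (adjusted exact p = 0.000261). Over all IDR peaks their share was 22.5%. The Mef2 consensus was in 6.39% of summit and 2.04% of flank windows (adjusted exact p = 0.000282), and in 7.63% of all IDR summit windows. Both consensuses are rich in A and T, and the part of base composition in them was not tested.

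The consensuses of E2F (TT, 2 letters C or G, then CGC), Myb (AACNGNC), CA repeats (CACACACA), TEAD (CATTCCA) and the E-box CAGCTG were in more flank windows. Myb sites, for instance, were in 7.41% of summit and 14.4% of flank windows (adjusted exact p = 0.000262). With windows reaching 25 bp to either side none of the 30 passed, and 5 had an unadjusted p below 0.05. The ratios of summit to flank windows there, with 0.5 added to both counts, were 1.53 for GATA, 0.319 for E2F and 0.212 for CA repeats, each with an adjusted exact p of 0.0514. Without replicate 2 the Mef2 call was lost (adjusted exact p = 0.0875) as was that of TEAD (1.00). Without replicate 1 the calls of TEAD and the E-box were lost (0.115 for both).

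Set against promoter summits, 3 consensuses were in fewer member windows, or 10%, and 2 in more, or 6.67% (2-sided Fisher's exact tests, adjusted over the 30). The DREF element TATCGATA was in 1 of 783 member windows and in 3.37% of promoter windows (odds ratio 0.0366, adjusted exact p = 6.09e-08). Over all IDR peaks its share was 1.82%, and it was in 0.175% of nearer intronic and in none of the 507 intergenic summit windows, so its low share was common to the classes away from promoters. The CGATA core, which lies within that element and in sites of the insulator protein BEAF-32, was in 11.2% against 21.4% (odds ratio 0.465, adjusted exact p = 3.21e-09). Core promoter motif 7 was in 0.639% against 4.53% (adjusted exact p = 9.81e-08). Over all IDR peaks the shares of these last 2 were 16.3% and 2.79%. Their shares in nearer intronic and intergenic windows were not counted, so the low values are not shown to be particular to the members. DREF, BEAF-32 and motif 7 sites are known features of housekeeping promoters in flies.

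GATA sites were in 25.3% of member windows and 20.1% of promoter windows (odds ratio 1.34, adjusted exact p = 0.0242). The nuclear receptor site AGGTCA was in 3.19% and 1.52% (odds ratio 2.13, adjusted exact p = 0.0380). Over all IDR peaks the shares were 22.5% for GATA and 1.75% for AGGTCA. Shares in nearer intronic and intergenic windows were not counted, so neither excess is shown to be particular to the members. Both calls were lost with windows reaching 25 bp to either side (adjusted exact p = 0.266 for GATA and 0.368 for AGGTCA). The same held with windows reaching 100 bp (0.0524 and 0.277). Without replicate 1 both calls were lost, with adjusted exact p-values of 0.0564 for GATA and 0.680 for AGGTCA, and without replicate 2 that of AGGTCA was lost (0.233). A match describes letters in a window and is not a binding site.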

How the data were processed

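The authors deposited peak lists in dm6 coordinates: 23253 and 30000 candidates for replicates 1 and 2, 27219 for the pooled reads, and 4117 IDR peaks. Values are the authors' deposited signal, an enrichment per peak that was ranked within a list. Signals of the replicates and the pooled reads were also set side by side at matched members, as a description. Its read normalization, the aligner and the peak caller were not given in the sources used here, and dm3 lists were not used. Summits were placed against Ensembl release 115 (BDGP 6.54, without transposable elements) and the Release 6 genome sequence. GC content, 8-letter words and 30 consensuses were taken over 101 bp; flanks were centred 300 bp away. Shares carry 95% Wilson intervals, which cover counting error only. Shares were compared by 2-sided Fisher's exact tests over peaks, and words and consensuses by exact McNemar tests, with Benjamini-Hochberg adjustment at 0.05. Peaks share 2 libraries and neighbours share introns, so these p-values measure spread over peaks, not over embryos. Genes named are among the hosts of the 20 strongest members, the 6 with most members, up to 3 per list, and those at the distance limits; others, and the CACTG placement, were chosen after values were seen. The members and the 16 lists (4 entries had no match) were chosen with earlier results of these data known. The results of 1 list and 2 summit windows are not reported here. The word and consensus tests against flanks were checked on simulated windows with planted words. Those windows had the same base composition at summit and flank, so the check does not cover the GC difference of the real ones. Python 3.11.15, pandas 2.3.3, NumPy 2.4.6, SciPy 1.17.1 and matplotlib 3.10.9 were used.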

Additional observations from a re-analysis of the deposited data

How the results depend on the processing

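No paired analysis was possible because the study has 1 group. Matching in both replicates and ranks between replicates have no value when a replicate is left out. Of 107 alternative values for 16 main results, 76 kept direction and side of the threshold or, for counts of calls, stayed within 1.5 times; the cause of the others was not tested. IDR share, against intergenic: odds ratio 1.20 over 1000 bp and 0.999 over 5000 bp, and between 0.991 and 1.15 without a replicate. Signal at the median, against nearer intronic: 0.770 over 1000 bp, and 0.784 to 0.864 without a replicate; against intergenic: 1.09, and 1.01 to 1.10. Matching in both: 1.01 against nearer intronic with protein-coding genes, 1.33 and 1.81 against nearer intronic and intergenic above the median signal, and 0.904, 1.37 and 1.16 against promoter, nearer intronic and intergenic within 200 bp. Rank in replicate 1, against nearer intronic: 0.635 above the median signal and 0.700 within 50 bp. First introns: 1.17 over 5000 bp. Consensuses against flanks: 0 called with 25 bp reach, 2 over 5000 bp, 4 above the median signal and 4 with flanks at 600 bp, against 7, of which 0, 2, 3 and 4 were shared with the 7. Words: 45 with 25 bp reach, 443 with 100 bp reach, 334 over 1000 bp, 30 over 5000 bp, 35 above the median signal and 0 with flanks at 600 bp, against 186, of which 39, 149, 141, 24, 28 and 0 were shared. Without replicate 1 there were 202 words, 86 of them shared, and without replicate 2 181, 92 of them shared. Consensuses against promoters: 3 with 25 bp reach, 8 with 100 bp reach and 3 above the median signal, against 5, with 3 shared in each. Leaving out members mostly in soft-masked repeats, added after the data were seen, gave 6, 124 and 6, of which 5, 85 and 5 were shared.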
